A study of Mus musculus with 12 samples.

Results

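The 8 genes described here are Gpnmb and 7 genes of bone-resorbing cells: the regulators Mitf and Nfatc1, the surface receptors Oscar and Calcr, and the effectors Atp6v0d2, Acp5 and Ctsk. Every probe that the array annotation gives one of these names was taken on its own, which made 12 of the 55681 noncontrol probes. The arrays were one-colour Agilent mouse gene expression arrays, 12 in all and 3 in each of 4 groups. The first group was CD11b+/CD11c+ cells sorted magnetically from kidneys of op/op mice, and the second was the same sort from wild-type (WT) mice. Both genotypes belong to the strain B6C3Fe a/a-Csf1op/J, and both received glyoxylate at 80 mg/kg for 6 days, an agent that gives rise to calcium oxalate crystals in the mouse kidney, so no untreated kidney stands beside them. The other groups were macrophages grown from bone marrow and polarized in culture, M1 with LPS and GM-CSF and M2 with IL-4 and M-CSF. The labels give the same strain for the marrow cells and no glyoxylate, genotype or age of their own. Nor do they say whether animals were pooled, or whether each array of a group had its own mouse or dish. The spread behind every p-value is that of these arrays, and it may be technical.

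Osteoclasts are giant cells that form when macrophage precursors meet M-CSF and RANKL and fuse. MITF and NFATc1 then switch on the genes for acid secretion and for enzymes that dissolve bone. Op/op mice carry a mutation in Csf1, the gene for M-CSF, and are known for a lack of osteoclasts and dense bone. Gpnmb, a glycoprotein of endosomes and lysosomes and a known MITF target, is made by osteoclasts, by macrophages loaded with lipid or debris, and by melanocytes. None of these genes belongs to osteoclasts alone: macrophages express several of them, and intercalated cells of the collecting duct use Atp6v0d2 for the same proton pump.

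Gpnmb, Acp5 and Oscar are known as MITF targets, and their promoters are shown because they held the 3 matches found to the longer motifs searched. RefSeq windows (GRCm38.p6, 250 bases before to 50 after a transcription start) were given for 6 of the 8 genes, 11 windows in all. Both strands were searched for CACGTG and CACATG, the E-boxes read by the MITF family, for TGANTCA, read by AP-1, and for GGAAA, the core of NFAT sites. Capitals mark the match to one of the longer motifs, and each sequence runs 5′ to 3′ on the strand of its gene. The Gpnmb window at chr6:49036268-49036567 (plus strand) held TGANTCA starting 8 bases after the start, and 7.81% of all 32851 promoter windows of this length held that motif.
Gpnmb: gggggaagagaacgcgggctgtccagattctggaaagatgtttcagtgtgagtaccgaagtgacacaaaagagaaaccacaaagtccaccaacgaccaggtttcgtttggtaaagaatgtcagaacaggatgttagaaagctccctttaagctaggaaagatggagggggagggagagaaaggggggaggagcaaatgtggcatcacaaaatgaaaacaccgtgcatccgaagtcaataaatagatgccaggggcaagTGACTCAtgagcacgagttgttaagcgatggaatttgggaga
The Acp5 window at chr9:22130549-22130848 (minus strand) held CACATG starting 90 bases before the start, as did 14.2% of all windows. The other 2 Acp5 windows did not hold it.
Acp5: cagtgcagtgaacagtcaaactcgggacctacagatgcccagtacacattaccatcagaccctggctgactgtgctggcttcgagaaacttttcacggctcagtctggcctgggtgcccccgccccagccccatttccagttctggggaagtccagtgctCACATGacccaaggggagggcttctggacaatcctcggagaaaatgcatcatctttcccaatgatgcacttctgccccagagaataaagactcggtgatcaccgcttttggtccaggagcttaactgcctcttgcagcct
The Oscar window at chr7:3616108-3616407 (minus strand) held the same E-box starting 6 bases before the start.
Oscar: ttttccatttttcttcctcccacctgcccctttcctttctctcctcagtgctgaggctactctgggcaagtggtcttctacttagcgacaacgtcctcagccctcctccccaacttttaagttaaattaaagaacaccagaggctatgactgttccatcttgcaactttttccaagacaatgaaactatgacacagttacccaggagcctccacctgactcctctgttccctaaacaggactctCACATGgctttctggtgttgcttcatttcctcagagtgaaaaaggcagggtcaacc
CACGTG was in none of the 11 windows and in 7.15% of all windows. GGAAA was in 9 of the 11 windows and at least once in each of the 6 genes, and 61.3% of all windows held it. None of these matches was tested for binding here.

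The values below are log2 signals relative to the 75th percentile of each array, so 0 is the level of a fairly bright probe. The scanner software judged 63% to 68.7% of probes well above background on op/op arrays, 76.1% to 79.3% on WT arrays, 72.5% to 75.1% on M1 arrays and 64.3% to 65% on M2 arrays. A comparison took in the probes that all arrays of one or both of its groups measured well above background. The residual SD had a median of 0.376 among renal arrays and 0.172 among marrow arrays. One spread per probe was fitted over all 4 groups, so the SEs printed for the renal comparison tend to understate its spread and those for M1 and M2 to overstate theirs. The 6 marrow arrays shared one slide and the renal arrays lay on 2 others, WT replicate 1 alone on its slide. Slide and tissue therefore cannot be told apart, nor can slide row and group within a tissue, since op/op and M2 filled row 2 of their slides and WT and M1 row 1. The number of arrays limits the precision. Of the markers of other cells, those of T and B cells summed to 9.04 to 12.6 times the 75th percentile on op/op arrays, 3.81 to 5.05 on WT arrays, 1.96 to 2.13 on M1 arrays and 1.57 to 1.88 on M2 arrays, with Cd3g well above background on no array. Neutrophil markers summed to 34.8 to 49.5 on op/op arrays, 26.2 to 70.0 on WT arrays, 78.4 to 88.8 on M1 arrays and 94.8 to 129 on M2 arrays. Endothelial markers summed to 33.7 to 52.2 on op/op arrays, 24.9 to 36.3 on WT arrays and 7.91 to 9.78 on marrow arrays.

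**Figure D1:**
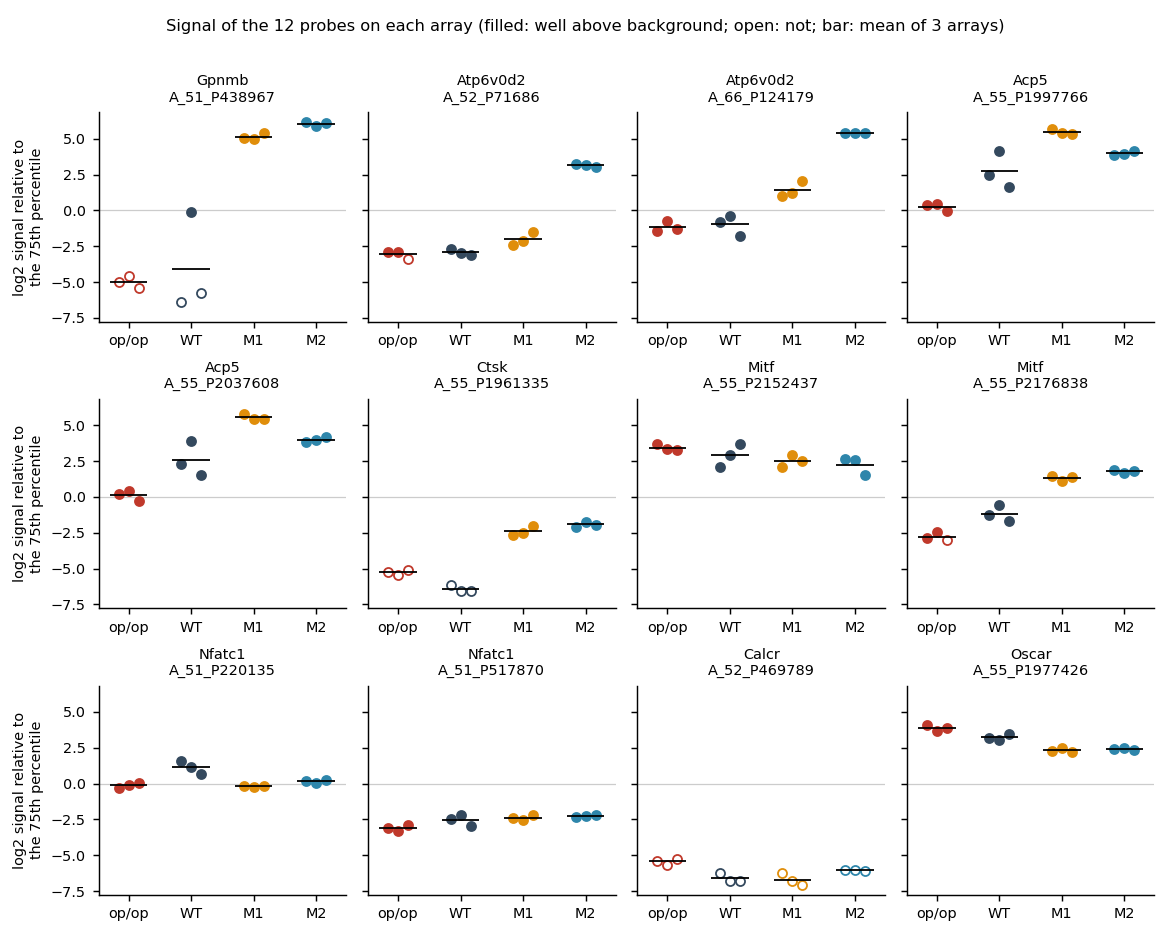
Log2 signal with the 75th percentile of its array set to 0 (y axis), for each of the 12 probes on the op/op, WT, M1 and M2 arrays. Points are single arrays, filled where the signal was well above background, and bars are means of 3 arrays. Gpnmb is filled on 1 of 6 renal arrays, WT replicate 2, and on every marrow array, while Calcr is open throughout.

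Mitf encodes the basic helix-loop-helix factor of melanocytes, osteoclasts and mast cells, and its 2 probes, which start 2728 bases apart on chromosome 6 (mm9), did not give the same picture. Probe A_55_P2176838 (chr6:97971229-97971288, annotated to transcript variant 1) read -2.89, -2.44 and -2.99 in op/op cells and -1.24, -0.59 and -1.69 in WT cells. The same probe read 1.47, 1.14 and 1.43 in M1 cells, and 1.86, 1.67 and 1.80 in M2 cells. The 4 groups did not overlap, with op/op lowest, then WT, M1 and M2, and the signal was well above background on 11 of 12 arrays, op/op replicate 4 being the exception. The signal fell by 1.60 ± 0.26 in op/op against WT cells (SE, limma with Benjamini-Hochberg adjustment over all tested probes, adjusted p = 0.00124, n = 3 each). With normexp background correction the difference was -0.70 and kept its call. M1 and M2 did not pass the test of their difference (-0.43 ± 0.26, adjusted p = 0.314). In cells sorted in bulk, fewer cells of a type and less RNA per cell cannot be told apart.

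Probe A_55_P2152437 (chr6:97968501-97968560, also transcript variant 1) read 3.66, 3.37 and 3.25 in op/op cells, 2.11, 2.94 and 3.71 in WT cells, 2.12, 2.91 and 2.51 in M1 cells and 2.65, 2.57 and 1.56 in M2 cells. WT arrays overlapped those of every other group. The difference of op/op from WT was 0.51 ± 0.40 (adjusted p = 0.282). The mean-centred profiles of the 2 probes lay 2.38 log2 units apart (root mean square over 12 arrays), the widest gap among the 4 genes with more than 1 probe. A direction for Mitf as a gene is therefore not given.

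Nfatc1, which encodes the calcineurin-dependent factor that drives late osteoclast differentiation, has 2 probes annotated to different transcripts, with starts 41775 bases apart on chromosome 18. Probe A_51_P220135 (chr18:80845439-80845498, mm9), annotated to transcript variant 1, read -0.29, -0.11 and 0.04 in op/op cells and 1.58, 1.17 and 0.69 in WT cells. It read -0.15, -0.25 and -0.17 in M1 cells and 0.20, 0.04 and 0.25 in M2 cells. WT arrays stood above all others without overlap, and this was the one probe of the 11 above background anywhere with its highest mean in WT kidney cells. It fell by 1.27 ± 0.21 in op/op against WT (adjusted p = 0.00136), whereas WT exceeded M1 by 1.34 ± 0.21 (adjusted p = 0.00027) and M2 by 0.98 ± 0.21 (adjusted p = 0.00189). Op/op did not pass against M1 (0.07 ± 0.21, adjusted p = 0.766) or M2 (-0.28 ± 0.21, adjusted p = 0.23).

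Probe A_51_P517870 (chr18:80803664-80803723), annotated to transcript variant 2, read -3.07, -3.28 and -2.87 in op/op cells, -2.46, -2.22 and -2.94 in WT cells, -2.44, -2.51 and -2.20 in M1 cells and -2.31, -2.30 and -2.22 in M2 cells. Op/op and WT overlapped at 1 array. The difference of op/op from WT was -0.53 ± 0.20 (adjusted p = 0.043), a call that was lost or turned in 11 of 19 alternatives, and normexp background correction put it at 0.00336.

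Oscar, the collagen receptor that signals through the Fc receptor gamma chain in osteoclasts, was the one gene of the 8 that rose in op/op cells. Its probe A_55_P1977426 (chr7:3561419-3561478, mm9) read 4.10, 3.70 and 3.86 in op/op cells and 3.21, 3.05 and 3.44 in WT cells. In marrow cells it read 2.29, 2.50 and 2.22 for M1 and 2.40, 2.51 and 2.33 for M2. The groups ran op/op, WT and then both marrow groups, and M1 and M2 overlapped. Oscar rose by 0.65 ± 0.17 in op/op against WT (adjusted p = 0.0092). With only the renal arrays in the fit the SE was 0.25 and the call was lost (adjusted p = 0.0671). Renal cells stood 1.18 ± 0.12 above marrow cells (adjusted p = 3.29e-06), and M1 and M2 differed by -0.07 ± 0.17 (adjusted p = 0.843, 95% interval -0.45 to 0.30).

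Calcr, the calcitonin receptor of mature osteoclasts, was not well above background on any of the 12 arrays (A_52_P469789, chr6:3635940-3635999, transcript variant 1b), and no comparison could be tested for it. Its measured signals lay between -5.66 and -5.27 on op/op arrays, -6.79 and -6.25 on WT arrays, -7.10 and -6.23 on M1 arrays and -6.07 and -6.01 on M2 arrays.

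Acp5 encodes tartrate-resistant acid phosphatase, the histological stain of osteoclasts that activated macrophages also make. Probe A_55_P1997766 (chr9:21931175-21931234, mm9, transcript variant 1) read 0.41, 0.45 and -0.05 in op/op cells and 2.45, 4.13 and 1.66 in WT cells. It read 5.69, 5.37 and 5.34 in M1 cells and 3.88, 3.92 and 4.12 in M2 cells. The 3 op/op arrays lay below all others, and WT replicate 2 reached the M2 level while the other 2 WT arrays stayed below it. A second probe, A_55_P2037608, shares 45 of its 60 bases with the first and so is no separate measurement. It gave the same order.

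Acp5 fell by 2.48 ± 0.46 in op/op against WT cells, which is 5.57-fold (adjusted p = 0.00211), and by 2.47 ± 0.46 on the second probe (adjusted p = 0.00202). Without WT replicate 2 the difference was -1.79 (adjusted p = 0.00236), and with only the renal arrays in the fit its adjusted p was 0.0195. With the slide as a term, which sets aside WT replicate 1, it was -2.63 (adjusted p = 0.00538). Among marrow cells Acp5 was higher in M1 than in M2 by 1.49 ± 0.46 (2.81-fold, adjusted p = 0.0455) and by 1.56 ± 0.46 on the second probe (adjusted p = 0.0352). The pooled spread behind this SE came mostly from WT arrays. Leaving out any 1 of the 6 marrow arrays lost the call on the first probe (adjusted p = 0.0876 to 0.137), while the fit of the 6 marrow arrays alone gave an SE of 0.13 (adjusted p = 0.000292).

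Ctsk encodes cathepsin K, the collagen-cleaving protease of osteoclasts. Its probe A_55_P1961335 (chr3:95313165-95313224, mm9) was well above background on all 6 marrow arrays and on no renal array, so op/op and WT could not be set against each other. It read -2.67, -2.54 and -2.01 in M1 cells and -2.08, -1.72 and -1.97 in M2 cells. The 2 groups overlapped and did not pass (-0.48 ± 0.21, adjusted p = 0.158). Where a group had no array well above background, the fold is a lower bound. It is taken against the dimmest signal that each of those arrays still measured well above background, or the probe's own signal if higher. Ctsk was at least 3.23-fold lower in renal than in marrow cells against that floor, or at least 1.87-fold with the 10th percentile of such signals as the floor. An adjusted p given with a bound belongs to the fitted difference, not to the bound. For Ctsk that difference was -3.67 ± 0.15 (limma, adjusted p = 9.6e-09). It rests on renal signals below background, and Ctsk entered the comparison through the marrow arrays alone.

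Atp6v0d2, a subunit of the proton pump that also takes part in osteoclast fusion, showed the widest gap between M1 and M2 of the 8 genes. Probe A_66_P124179 (chr4:19805367-19805426, mm9) read 1.01, 1.18 and 2.02 in M1 cells against 5.40, 5.42 and 5.41 in M2 cells. It read -1.43, -0.74 and -1.30 in op/op cells and -0.81, -0.38 and -1.77 in WT cells. The order was M2, M1 and then both renal groups, which overlapped. Probe A_52_P71686, 1063 bases away at chr4:19804304-19804363, read -2.41, -2.16 and -1.48 in M1 cells against 3.21, 3.14 and 3.06 in M2 cells, and from -3.37 to -2.69 in renal cells.

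Atp6v0d2 was lower in M1 than in M2 by 4.01 ± 0.35 (16.1-fold, adjusted p = 1.02e-05) and by 5.16 ± 0.24 (35.7-fold, adjusted p = 7.85e-08). Its difference between op/op and WT was -0.17 ± 0.35 on the first probe (adjusted p = 0.686, 95% interval -0.95 to 0.60) and -0.13 ± 0.24 on the second (adjusted p = 0.644, interval -0.66 to 0.40), and both changed sign in some alternatives. Markers of intercalated cells, which use the same subunit, were measured beside it: 10 of 10 were tested in op/op against WT, 1 passed as higher and 1 as lower. Of all genes, each by its brightest probe, 30.3% were higher and 28.1% lower in that comparison. Without WT replicate 1 the intercalated cell markers gave 3 higher and 0 lower, and with the renal arrays alone 1 higher and 0 lower. The summed level of the intercalated cell markers was 9.28 to 10.9 on op/op arrays, 6.45 to 8.80 on WT arrays, 2.71 to 2.999 on M1 arrays and 2.55 to 2.75 on M2 arrays. The part of these cells in the renal signal was not tested.

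Gpnmb was the gene with the widest range of the 8, 12.5 log2 units between the lowest and the highest array. Probe A_51_P438967 (chr6:49006386-49006445, mm9) read -5.01, -4.62 and -5.43 in op/op cells and -6.36, -0.09 and -5.78 in WT cells. In marrow cells it read 5.03, 5.01 and 5.38 for M1 and 6.17, 5.87 and 6.12 for M2. Marrow groups did not overlap with each other or with any renal array. Among renal arrays only WT replicate 2 was well above background, and Gpnmb was therefore not tested in op/op against WT.

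Gpnmb was at least 346.5-fold lower in op/op than in M1 cells and at least 652-fold lower in op/op than in M2 cells. With the 10th percentile as the floor the bounds were 213-fold and 400.4-fold. The fitted differences were -10.16 against M1 (adjusted p = 1.23e-05) and -11.07 against M2 (adjusted p = 5.82e-06). Both rest on op/op signals below background, and Gpnmb entered these comparisons through the marrow arrays alone. M1 stood 0.91 below M2, and all 3 M1 arrays lay below all 3 M2 arrays. With all 12 arrays the SE was 1.20 and the difference did not pass (adjusted p = 0.7). That SE carried the spread of the WT group: without WT replicate 2 in the fit, an alternative chosen after seeing the data, the SE was 0.24 (adjusted p = 0.0243), and with the marrow arrays alone it was 0.14 (adjusted p = 0.00312).

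WT replicate 2 stood apart for Gpnmb. On the other WT arrays its signal was not well above background, so no size is given for its gap to them. That array measured 703 probes well above background that neither other WT array did. Such probes numbered 959 for WT replicate 1 and 1349 for WT replicate 4, so by this count replicate 2 did not stand out. WT replicate 2 had the highest summed level of the macrophage markers among WT arrays (240 times the 75th percentile, against 122 to 152 on the other WT arrays) and of the 15 genes listed with Gpnmb-high macrophages (282, against 89.2 and 171). It also read highest for Acp5 on both probes. Melanocytes, the other makers of Gpnmb, were measured by 7 markers: their sum was 2.88 to 4.09 on op/op arrays and 1.48 to 2.11 on WT arrays, with WT replicate 2 lowest at 1.48. Tyrp1 and Oca2 were well above background on no array. The sum was 0.793 to 1.03 on M1 arrays and 1.01 to 1.03 on M2 arrays.

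Of the 12 probes, 9 passed the filter in op/op against WT. Of these 9, 1 rose and 5 fell (Oscar, and Acp5 on both probes, Nfatc1 on both probes and Mitf on 1), where 56% of all 40620 tested probes were called, 27.5% higher and 28.5% lower. On 5 of the 9 the groups did not overlap, against 56.4% of all tested probes. The median difference was -0.53 over the 9 and 0.08 over all tested probes. With the renal arrays alone 4 of the 9 were called, where 33.3% of all 40635 probes were called. The macrophage markers moved with these results: 9 of 11 fell in op/op and 0 rose, and their summed level was 67.8 to 73.8 on op/op arrays against 122 to 240 on WT arrays. All 10 proximal tubule markers fell as well, with a sum of 28.0 to 72.4 on op/op arrays against 123 to 249 on WT arrays, highest on WT replicate 1. Without that array 7 of the 10 proximal tubule and 8 of the 11 macrophage markers fell. With the renal arrays alone 8 of each list fell, where 17.2% of all genes fell. The part of either cell type in the results for Acp5, Nfatc1 and Mitf was not tested.

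**Figure D2:**
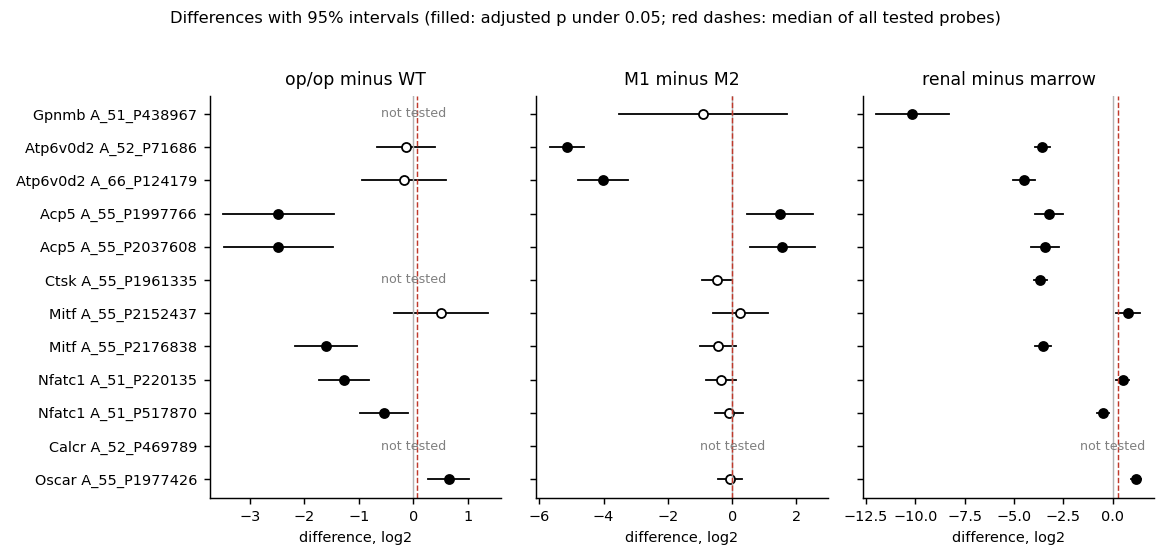
Difference in log2 signal (x axis) of each probe in op/op minus WT, M1 minus M2 and renal minus marrow cells, with 95% intervals from limma. Filled points passed at an adjusted p under 0.05, and red dashes mark the median of all tested probes. Acp5, 1 Mitf probe and Nfatc1 lie left of 0 in op/op minus WT, Oscar lies right of it, and the Gpnmb interval in M1 minus M2 is the widest of that panel. Where a group was below background (Ctsk in renal cells) the point is the fitted value, and the text gives the bound.

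In M1 against M2, 11 probes were tested: 2 were higher (both of Acp5) and 2 lower (both of Atp6v0d2), while 17.8% of all 39267 tested probes were called, 8.9% higher and 8.89% lower. On 7 of the 11 the groups did not overlap, as on 51.2% of all probes. With the marrow arrays alone, a fit that called 36.9% of all 39276 probes (17.5% higher, 19.4% lower), 7 of the 11 were called, the 4 above and Gpnmb, Mitf on A_55_P2176838 (-0.43, adjusted p = 0.0297) and Nfatc1 on A_51_P220135 (-0.35, adjusted p = 0.0265), all 3 lower in M1. The median difference was -0.35 over the 11 and -0.003 over all tested probes. Macrophage markers summed to 268 to 305 on M1 arrays and 224 to 231 on M2 arrays.

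In renal against marrow cells all 11 tested probes were called, 8 lower and 3 higher, where 79.5% of all 42920 tested probes were called, 33.9% lower and 45.6% higher. Among the 8, Ctsk and Gpnmb passed the filter only through the marrow arrays, where they were high. Their calls as lower were thus favoured by the filter and rest on renal signals mostly below background. The groups did not overlap on 6 of the 11, against 44% of all. Beside Ctsk, the lower ones were Gpnmb (-10.14 ± 0.85, adjusted p = 6.53e-07, a fitted value with 5 of 6 renal arrays below background), Atp6v0d2 (-4.48 ± 0.25 and -3.55 ± 0.17), Acp5 (-3.21 ± 0.33 and -3.42 ± 0.32), Mitf on A_55_P2176838 (-3.53 ± 0.18) and Nfatc1 on A_51_P517870 (-0.48 ± 0.14, but 0.0152 with normexp and not called with low signals raised to a floor). The higher ones were Oscar, Mitf on A_55_P2152437 (0.79 ± 0.28, its call lost in 3 of 25 alternatives, without WT replicate 4, M1 replicate 2 or M2 replicate 4) and Nfatc1 on A_51_P220135 (0.53 ± 0.15). Over the alternatives the fitted difference ran from -11.14 to -7.48 for Gpnmb and from -3.88 to -2.47 for Atp6v0d2 on A_52_P71686, each smallest with normexp. Markers of other cells moved with this contrast, where 47.2% of all genes were higher and 34.6% lower in renal cells. All tested markers of proximal tubule (10), intercalated cells (10), principal cells and thick limb (8) and endothelium (6) were higher in renal cells, as were 7 of 8 dendritic cell markers with 1 lower, and 9 of 11 macrophage markers were lower with 2 higher. Principal cell and thick limb markers summed to 19.7 to 65.2 on op/op arrays and 38.9 to 93.5 on WT arrays, against 1.64 to 1.97 on M1 arrays and 1.46 to 1.57 on M2 arrays. Dendritic cell markers summed to 4.91 to 5.75 on op/op arrays and 5.12 to 6.87 on WT arrays, against 1.68 to 1.85 on M1 arrays and 2.35 to 4.56 on M2 arrays. Proximal tubule markers, given above for kidney cells, summed to 1.45 to 1.51 on M1 arrays and 1.67 to 2.02 on M2 arrays. Markers of osteoblasts and fibroblasts moved the other way, with 6 of 8 lower in renal cells and 1 higher: their sum was 2.83 to 3.58 on op/op arrays and 3.09 to 3.28 on WT arrays, against 72.8 to 103 on M1 arrays and 54.5 to 64.2 on M2 arrays, most of it from Col1a1 and Col1a2. Col1a2 averaged 0.03 in op/op and 0.44 in WT cells, against 5.95 in M1 and 5.46 in M2 cells. The part of any of these cell types in the renal and marrow levels was not tested.

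The 4 single comparisons of renal with marrow groups were fitted to place the groups in order. Against M1, 9 of 11 probes were called in op/op cells (1 higher, 8 lower) where 78.9% of all probes were called, 43.5% higher and 35.4% lower. In WT cells 9 were called (2 higher, 7 lower) where 57% of all were, 32.8% higher and 24.2% lower. Against M2, 10 were called in op/op cells (2 higher, 8 lower) where 81.4% of all were, 44.7% higher and 36.7% lower. In WT cells 9 were called (2 higher, 7 lower) where 62.1% of all were, 35.6% higher and 26.5% lower. These comparisons share their renal and marrow arrays with one another, and in each Ctsk and Gpnmb passed the filter only through the marrow arrays. The least settled neighbours were WT and M2 for Acp5, where WT stood 1.23 ± 0.46 lower (adjusted p = 0.0372) but the call was lost in 10 of 19 alternatives, with array weights at -0.44 (adjusted p = 0.333), and without WT replicate 2 the difference was -1.92 (adjusted p = 0.000169).

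The other genes of the osteoclast programme were taken as 5 lists, each gene by the probe with the highest mean over the 12 arrays. In op/op against WT most called genes of every list fell, where 28.1% of all genes fell and 30.3% rose. With the renal arrays alone, where 17.2% of all genes fell and 17.4% rose, the genes that rose numbered 0 to 1 in each of the 5 lists. Of 18 transcription factors tested, 13 fell and 1 rose (Relb, 0.74, adjusted p = 0.0112, named after its value was seen, with -0.96 and -0.35 as the range of its other probes), with a list median of -1.13 beside 0.16 over all genes. Id2, a repressor of osteoclast genes, averaged -0.91 in op/op against 0.74 in WT cells (-1.66 ± 0.26, adjusted p = 0.00109). Tfe3, the closest relative of Mitf, fell by 1.16 ± 0.17 (adjusted p = 0.000856), and Fosl2, an AP-1 factor, fell by 1.25 ± 0.19 (adjusted p = 0.001). Nfkb1, a subunit of NF-kB, fell by 1.32 ± 0.19 (adjusted p = 0.000856), though its other probe gave -0.45. The factors that fell included both drivers and a repressor of osteoclast genes.

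Of 15 genes of RANK and immunoreceptor signalling, 9 fell and 3 rose (median -0.80). Trem2, a receptor of the DAP12 pathway, read 1.10, 0.65 and 0.96 in op/op against 2.41, 3.65 and 2.60 in WT cells and fell by 1.98 ± 0.28 (adjusted p = 0.000782). Fcer1g, the gamma chain that pairs with Oscar, fell by 1.11 ± 0.22 (adjusted p = 0.00287), and Plcg2, the phospholipase downstream of it, fell by 1.16 ± 0.19 (adjusted p = 0.0013). The 3 that rose were the RANK gene Tnfrsf11a (0.64 ± 0.19, adjusted p = 0.0163), Tnfrsf11b, which encodes the RANKL decoy osteoprotegerin (1.15 ± 0.23, adjusted p = 0.00305), and Siglec15 (0.85 ± 0.25, adjusted p = 0.0147). Tnfrsf11a and Siglec15 were named after their values were seen.

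Of 20 genes of acid secretion, 12 fell and 1 rose (Ostm1, 1.03, named after its value was seen, with -0.25 on its other probe), with a median of -0.97, or -0.87 with genes below background at their bound. Atp6v1b2, the B subunit of the pump outside the collecting duct, was well above background on no op/op array and read -1.09, -1.41 and -2.54 in WT cells. Its level was at least 3.07-fold lower in op/op (adjusted p of the fitted difference, not of this bound, 0.000982). Atp6v0c, the proteolipid of the membrane ring, fell by 1.18 ± 0.22 (adjusted p = 0.00203). Of 14 genes of matrix attachment and resorption, 8 fell and 1 rose (Itgb3, 1.10, named after its value was seen, with -0.98 on its other probe), with a median of -0.75. The lysosomal proteases Ctsb and Ctss fell by 1.82 ± 0.27 (adjusted p = 0.000905) and 1.93 ± 0.27 (adjusted p = 0.000782), and the collagenase Mmp13 averaged -3.95 in op/op and -0.96 in WT cells (-2.99 ± 0.51, adjusted p = 0.00153), a fitted value with 1 of 3 op/op arrays well above background. With the renal arrays alone, 4 of these 14 fell and 0 rose. Of 10 genes of fusion and the cell surface, 6 fell and 2 rose (median -0.88). Those that rose were Dnm2 (0.68, with -0.22 on its other probe) and Ocstamp (0.68, adjusted p = 0.0444, named after its value was seen). Sirpa, the receptor of CD47, fell by 1.61 ± 0.15 (adjusted p = 0.000179) and Cd47 by 0.90 ± 0.17 (adjusted p = 0.00231). The fusion receptor gene Dcstamp read -0.97, -1.75 and -1.12 in op/op against -1.09, 1.38 and -0.44 in WT cells and did not pass (-1.23 ± 0.51, adjusted p = 0.0582), and WT replicate 2 was again the highest array.

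The list of genes that accompany Gpnmb in lipid- and debris-laden macrophages gave 12 of 15 lower and 0 higher in op/op, with a median of -1.31. Hmox1, heme oxygenase, read 2.46, 2.51 and 2.67 in op/op against 5.04, 5.38 and 4.22 in WT cells and fell 5.05-fold (-2.34 ± 0.26, adjusted p = 0.00038). Plin2, which coats lipid droplets, fell by 1.73 ± 0.35 (adjusted p = 0.00294), Cd68 by 1.49 ± 0.26 (adjusted p = 0.00151) and Cd63 by 1.17 ± 0.23 (adjusted p = 0.00282). Without WT replicate 2 the count was 8 lower and 0 higher, and it was the same with the renal arrays alone. The macrophage markers given above moved with all 6 lists, and their part was not tested.

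**Figure D3:**
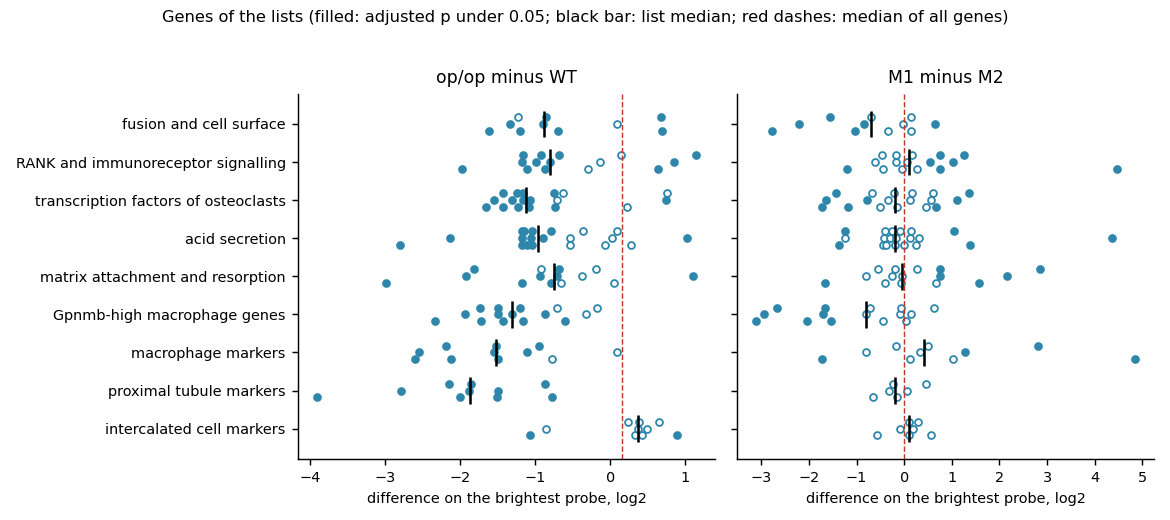
Difference in log2 signal on the brightest probe (x axis) of each tested gene of the 6 lists and of 3 marker lists, in op/op minus WT and M1 minus M2 cells. Filled points passed at an adjusted p under 0.05, black bars are list medians and red dashes the median of all genes. List medians in op/op minus WT lie between -1.87 for proximal tubule markers and 0.37 for intercalated cell markers, and 6 of 6 gene list medians lie below that of all genes.

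In M1 against M2 the lists split, where 8.73% of all genes were higher and 8.75% lower. No gene of the Gpnmb-high list was higher in M1 and 7 of 15 were lower (median -0.79). Lipa, the lysosomal lipase, averaged 1.24 in M1 and 4.35 in M2 cells (-3.11 ± 0.34, adjusted p = 5.98e-05), and Lpl, lipoprotein lipase, averaged 3.34 in M1 and 6.29 in M2 cells (-2.95 ± 0.31, adjusted p = 3.82e-05). Fusion and cell surface genes gave 1 higher and 5 lower of 11, with Dcstamp lower in M1 by 2.77 ± 0.51 (adjusted p = 0.00264) and the tetraspanin Cd9 by 2.21 ± 0.21 (adjusted p = 2.17e-05). RANK and immunoreceptor signalling gave 6 higher and 1 lower of 16. Tnfsf11, which encodes RANKL, read -1.20, -0.90 and -1.11 in M1 cells and was well above background on no M2 array. Its level was at least 7.10-fold higher in M1 (adjusted p of the fitted difference, not of this bound, 2.23e-05). Of 8 osteoblast and fibroblast markers tested, 1 was higher in M1 and 0 were lower. Dcn, from that list, read 2.87, 2.95 and 2.81 in M1 and -0.49, -0.16 and -0.33 in M2 cells. The part of such cells in the M1 and M2 levels of the listed genes was not tested.

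Acid secretion gave 3 higher and 2 lower of 20. Car2, the carbonic anhydrase that supplies protons, averaged 1.42 in M1 and -2.94 in M2 cells (4.36 ± 0.45, adjusted p = 3.49e-05, with 2 of 3 M2 arrays well above background), and the pump subunit Atp6v1a was lower in M1 by 1.38 ± 0.27 (adjusted p = 0.00432). Matrix attachment and resorption gave 5 higher and 1 lower of 15, among them Src (1.57 ± 0.22, adjusted p = 0.000371), the kinase of the osteoclast ruffled border, and the metalloprotease Mmp14 (2.84 ± 0.37, adjusted p = 0.000229). Transcription factors gave 3 higher and 5 lower of 18, with Nfkb1 higher in M1 by 1.11 ± 0.19 (adjusted p = 0.00172) and Bhlhe40, a basic helix-loop-helix factor, lower by 1.63 ± 0.25 (adjusted p = 0.000669). With the marrow arrays alone, where 17.2% of all genes were higher and 19.2% lower, the counts were 6 higher and 4 lower for RANK and immunoreceptor signalling, 3 and 8 for acid secretion, 6 and 4 for matrix genes, 6 and 7 for transcription factors and 1 and 10 for the Gpnmb-high list.

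The 5 genes nearest to Gpnmb in profile were Lox, Pf4, Grem1, Cd5l and Rpl39l, by root mean square distance of mean-centred log2 profiles over the 12 arrays among 28222 genes, as a description of 12 arrays in 4 groups. Lox, which encodes the collagen cross-linker lysyl oxidase, lay at 2.15. It read -2.73, -3.32 and -3.41 in op/op, -2.88, -2.61 and -2.56 in WT, 4.11, 4.33 and 3.87 in M1 and 3.88, 4.20 and 4.06 in M2 cells. Pf4, platelet factor 4, lay at 2.39 and shared with Gpnmb a highest renal signal on WT replicate 2 (2.59, against 0.90 and -0.70 on the other WT arrays). Grem1, a BMP antagonist of stromal cells, lay at 2.45, Cd5l, a secreted macrophage protein, at 2.49, and Rpl39l at 2.50. Lox was well above background on 11 of 12 arrays, Pf4 and Cd5l on 9, Grem1 on 7 and Rpl39l on 6, so the low ends of these profiles are partly unmeasured. Over the 4 group means 4 of the 5 were again among the nearest 5. The other genes here were ranked by their brightest probe alone. Atp6v0d2 ranked 64th, Ctsk 153rd and Acp5 197th, whereas Nfatc1 on A_51_P220135 ranked 15052nd, Mitf on A_55_P2152437 17488th and Oscar 20616th. The other Mitf probe, A_55_P2176838, stood 3.53 lower in renal than in marrow cells and was not ranked, so these ranks give no likeness for Mitf as a gene. The likeness follows the gap between renal and marrow arrays, which all 5 share, and slide and tissue cannot be told apart in it.

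**Figure D4:**
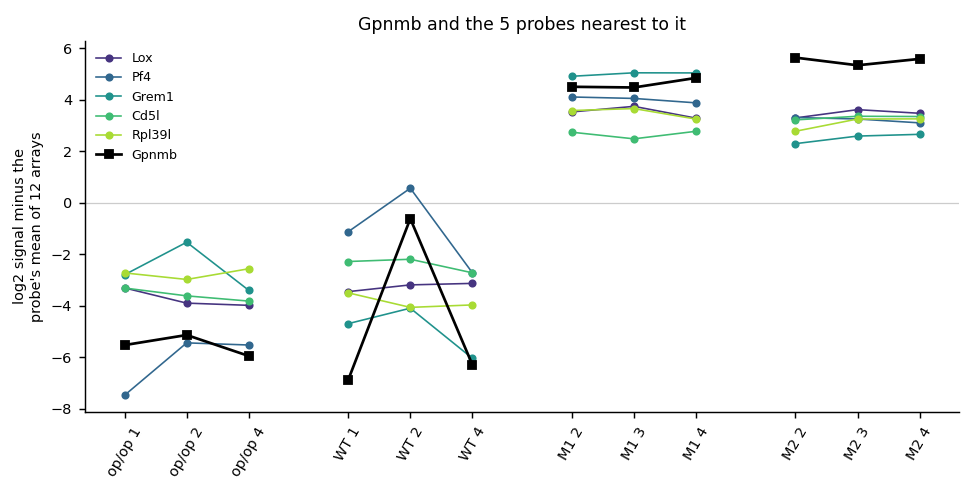
Log2 signal minus each probe's own mean of 12 arrays (y axis) for Gpnmb (black squares) and the 5 nearest genes on each array (x axis, op/op, WT, M1 and M2 with the replicate number). Lines join a gene's points within a group and mark no order. Among renal arrays both Gpnmb and Pf4 are highest on WT replicate 2, the one renal array with Gpnmb well above background.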

How the data were processed

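The 12 scanner files were made with Agilent Feature Extraction 10.7.3.1, per the submitters' processing notes; they hold spot intensity values with the background subtracted, per the file headers. The authors also deposited a table of log2 values, which correlated with the scanner values at r = 1 on every array and, with column medians from -2.47 to -1.88, was set to the 75th percentile in the same way. RNA was amplified with the Ovation PicoSL system before Cy3 labelling, per the labels' protocols.

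From these, log2 was taken, spots of a probe were averaged and each array's 75th percentile was subtracted. Of 55681 noncontrol probes, 30 lacked an unflagged spot on some array, and 0 spots were saturated. limma 3.58.1 (R 4.3.3) fitted all 12 arrays in 4 groups, without covariates; p-values were adjusted by Benjamini and Hochberg over all tested probes and called under 0.05. The fit was also run on simulated arrays with known changes, with equal spread and with the spread of each tissue. A limit on false calls was required only with equal spread, which these arrays do not have. Figures were drawn with matplotlib 3.10.9. Coordinates are those of the files (mm9); no annotation of that build was used, so exon or UTR is not given.

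The 8 genes, the 6 gene lists and the 10 marker lists were chosen with earlier results of these data known. The text names all probes of the 8 genes, of each list up to 4 genes with the smallest p in op/op against WT and in M1 against M2, list genes well above background on no array, and the 5 genes nearest to Gpnmb. The values of 1 list gene that this rule names are not reported here. Sums over a marker list add linear signals, each relative to the 75th percentile.

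Other settings tried concerned the values (normexp with an offset of 50, quantile normalization, cyclic loess, centring on the median of probes measured on all 12 arrays, the authors' table), the probes (every probe, those measured on each of the 12 arrays, low signals raised to a 10th percentile floor, 1 probe a gene) and the model (a fit of the 2 groups alone, a trended and robust prior, weights for arrays, a slide term, the replicate number as a block, each array left out in turn).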

Additional observations from a re-analysis of the deposited data

How the results depend on the processing

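Over 1457 refits of single probes, 1373 kept direction and call, 52 lost the call, 20 gained it and 12 turned sign. Some of these refits could hardly differ from the reported fit. In renal against marrow, the fit of only the groups compared is the reported fit again. The authors' table holds nearly the same values as the scanner files. With the brightest probe of each gene, counts of the 12 probes called were 3 in op/op against WT, 2 in M1 against M2 (4649 probes in all), 7 in renal against marrow and 6 in op/op against M2; the construction leaves fewer probes. With the filter on all 12 arrays they were 7 in renal against marrow, 6 in op/op against M2, 5 in WT against M1 and 5 in WT against M2, again from fewer probes. In M1 against M2, 7 were called with only the groups compared (14488 probes in all) and 7 with array weights (15221 probes), and 10892 probes were called with the floor; leaving out 1 marrow array gave 2 each time, both probes of Atp6v0d2 being lower in each. In op/op against WT 13516 of all probes were called with only the groups compared, against 22743 with all groups.

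The signs that turned included called differences of Nfatc1 on A_51_P517870 (-0.53 in op/op minus WT, -0.69 in op/op minus M1 and -0.48 in renal minus marrow as reported). Atp6v0d2 on A_52_P71686 in op/op minus WT was 0.25 with normexp and 0.33 with the floor, and -0.242 to 0.018 with 1 array left out (highest without op/op replicate 4). On A_66_P124179 it was -0.564 to 0.131 (highest without WT replicate 2). Nfatc1 on A_51_P517870 with normexp was 0.00336 in op/op minus WT, 0.0152 in renal minus marrow, 0.0667 in op/op minus M1 and 0.0633 in WT minus M1. In WT minus M1 it was also 0.019 with array weights and -0.323 to 0.0386 with 1 array left out (highest without WT replicate 4). Mitf on A_55_P2152437 in M1 minus M2 was -0.0942 to 0.455 (lowest without M2 replicate 4), and Nfatc1 on A_51_P220135 in op/op minus M1 was -0.00874 to 0.155 (lowest without op/op replicate 4). The cause was not tested. The median of all probes in op/op minus WT moved by 0.10 with normexp and by 0.25 with the floor, where 61% and 62.1% of calls were higher, beside 49.2% without either. In M1 minus M2 it moved by -0.11 with the floor, where 32.5% of calls were higher, and 39.2% were with no filter, beside 50% as reported. In renal minus marrow it moved by -0.29 with quantile normalization and by -0.28 with cyclic loess. Deviations of arrays with equal replicate numbers correlated at -0.142, 0.08 and -0.0626 in kidney and -0.0471, 0.124 and 0.0755 in marrow. Those with unequal numbers ran from -0.244 to 0.267 in kidney and from -0.189 to 0.108 in marrow. With 3 arrays in each group, these values cannot decide whether arrays were paired. With the number as a replicate block, 5 member probes were called in op/op against WT (20274 probes in all), 4 in M1 against M2 (5441) and 11 in renal against marrow (33496).

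Ctsk in renal cells, Calcr in all cells and Gpnmb on 5 of 6 renal arrays were not well above background, so a difference among those arrays was not detectable.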
